A study of Homo sapiens with 4 samples.

Results

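Band 8q24.3 is the last band of the long arm of human chromosome 8, and it held 1756 of the 115384 ELF5 peaks in the authors' deposited list for T47D cells. A peak counted as a member when its summit lay on chromosome 8 between 139.9 and 146.364 Mb on hg19, outside 1 stretch of 75 kb that is not analysed here. Inside the band, a cluster of 302 peaks between 143.17 and 143.721 Mb was set against the 732 peaks of the last part of the arm, from 144 to 146.3 Mb, called the gene-dense end. The members and both stretches were chosen on peak positions in this same list, so counts and densities below describe the list and none of them was tested. Positions are given on hg19, with the first base of the chromosome as 1.

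The series held 3 samples of ELF5 ChIP-seq and 1 input sample, all from the human breast cancer line T47D. This established line has luminal A epithelial character, and was grown in RPMI with FBS and insulin and given no treatment. The labels do not tell whether the 3 replicates were separate cultures. Only 1 peak list was analysed, with no value per replicate and no column for the input, so no value below carries a spread between replicates. T47D is a single line, and the copy number of chromosome 8 in it was not measured here.

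ELF5 is an ETS-family transcription factor that binds DNA through its ETS domain and is known for its part in the differentiation of luminal and alveolar cells of the mammary gland. In ChIP-seq, fragments bound by the factor pile up over the surrounding background, and a peak caller reports a fold over that background with a p and a q. The end of the long arm of chromosome 8 is known for many closely packed genes and for frequent gain in breast cancer. In the RefSeq table for GRCh38.p14, read in order towards the end of the arm, 107 protein-coding genes stand from COL22A1, a collagen gene, to C8orf33, the last one. The first 15 end at ARC, a synaptic gene, just after TSNARE1 and ADGRB1, an adhesion receptor gene of the brain. The other 92 include LY6 family genes for small membrane-anchored proteins, CYP11B1 for a step of cortisol synthesis, SCRIB for cell polarity, and EPPK1 and PLEC for plakins that link intermediate filaments in epithelia. These names give gene order in another build only. No hg19 annotation was used, so no peak below is assigned to a gene, the gene density of the end was not measured, and no sequence is shown.

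ELF5 peaks in 8q24.3 were crowded and mostly weak. The band held 275 peaks per Mb against 37.3 in the whole list, a ratio of 7.37. Strong peaks, the highest 10% of the list by fold, numbered 91 in the band, which is 5.18% of its peaks (exact Clopper-Pearson 95% interval 4.19 to 6.32), against 10.0% of the whole list. A peak was strong at a fold of 11.99 or more. The density of strong peaks, 14.2 per Mb, was 3.82 times that of the whole list, so both kinds of peak were dense in the band and the others more so. The median fold was 3.19 in the band and 3.66 in the list. Intervals here and below cover counting error only, and neighbouring peaks are not independent of each other.

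Peaks covered 8.50% of the band's bases, against 1.24% in the whole list. A width of 2000 bp or more was reached by 9 of the band's 1756 peaks, against 517 of 115384, or 0.448%, in the list. The smallest width of the list, 135 bp, was shared by 125 peaks, 7.12% of the band, against 9.27% of the list. The authors' q was under 0.05 for 80.5% of the band's peaks (78.6 to 82.4), against 87.5% of the list. A −log10 p of 5 or more was reached by 41.6% of the band's peaks, against 57.9% of the list. The band thus held a larger share of weakly supported peaks than the list as a whole.

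The fragment pileup and the local background behind each peak were recovered from its fold and p. The median pileup was 15 fragments in the band and 16 in the whole list. The median background was 3.51 scaled fragments in the band and 3.105 in the list. At such pileups single peaks cannot be ranked. The exact Poisson 95% interval of the fold lay wholly above the list's median fold of 3.66 for 212 of the band's 1756 peaks. That is 12.1% of the band, against 24.7% of the whole list. The interval lay wholly below the limit for strong peaks for 1646 of the band's peaks, or 93.7%, against 85.6% of the list. It crossed that limit for 46 of them, against 8486 of 115384 in the list. These 46 are few beside all 1756 members but not beside the 91 strong ones, and some of the cluster's 7 strong peaks were among them.

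Along the band, dense peaks and strong peaks did not follow the same course. The first 700 kb of the band were sparse, with 22 peaks, or 31.4 per Mb, and a highest fold of 4.69. None of these 22 was strong, which allows a share of up to 13.6% at 3 counts and up to 15.4% by the exact Clopper-Pearson interval. From 140.6 to 142.0 Mb there were 182 peaks, or 130.0 per Mb, of which 8 were strong. From 142.0 Mb to the start of the cluster there were 434 peaks, or 371 per Mb, of which 6 were strong. The cluster then held 548 peaks per Mb, the 0.279 Mb between it and the gene-dense end held 301, and the gene-dense end held 329. Strong peaks stood at 5.71 per Mb from 140.6 to 142.0 Mb, 5.13 from there to the cluster, 12.7 in the cluster, 21.5 between the cluster and the end, and 28.8 in the gene-dense end.

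**Figure D1:**
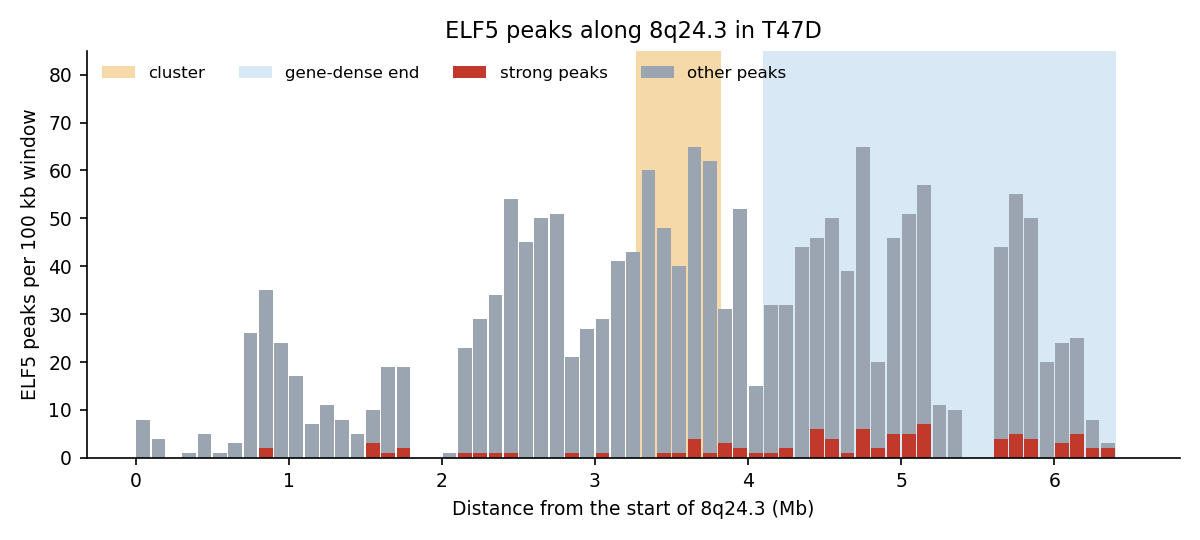
ELF5 peaks per 100 kb window against the distance from the start of 8q24.3 in Mb, with strong peaks (highest 10% of fold in the list) at the foot of each bar and the other peaks above them. The cluster and the gene-dense end are shaded, and 1 window inside the end was analysed only in part. The highest windows reach 65 peaks both in the cluster and in the end, while strong peaks reach 4 per window in the cluster and 7 in the end.

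Windows of 100 kb show the same contrast. Of 63 windows analysed in full, 22 held 40 peaks or more. In the 11 windows from 142.0 to 143.1 Mb, 5 reached 40 peaks and 4 of those held no strong peak. In the 5 windows lying wholly inside the cluster, counts ran from 40 to 65 with a median of 60, and strong peaks from 0 to 4. In the 22 windows of the gene-dense end, counts ran from 0 to 65 with a median of 35.5, and strong peaks from 0 to 7. All 7 windows of the band with 5 strong peaks or more lay in the gene-dense end.

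Of the stretches just listed, the cluster had the most peaks per Mb and a low share of strong ones. Some shorter runs of the band were denser, such as chr8:145718414-145781348, with 44 peaks at 699 per Mb. Another, chr8:144870307-145114422 in the gene-dense end, held 139 peaks at 569 per Mb. The 302 peaks of the cluster lay 1.67 times as densely as those of the gene-dense end taken whole. Of them 7 were strong, a share of 2.32% (0.937 to 4.72). In the gene-dense end 64 of 732 were strong, a share of 8.74% (6.80 to 11.03), at this limit close to the 10.0% of the whole list. Per Mb, strong peaks in the cluster were 0.442 times as dense as in the gene-dense end, and the remaining peaks 1.78 times as dense. The cluster took up 8.62% of the analysed length of the band and held 17.2% of its peaks but 7.69% of its strong peaks. The gene-dense end took up 34.8% of the length and held 41.7% of the peaks and 70.3% of the strong ones.

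The 2 stretches had close median folds and differed in the spread of folds around them. The median fold was 3.18 in the cluster (interquartile range 2.86 to 3.82) and 3.15 in the gene-dense end (2.75 to 4.03). The fold that the highest 10% of peaks exceeded was 5.01 in the cluster and 9.27 in the gene-dense end. Peaks with a fold of 3 to 4 made up 42.1% of the cluster and 32.4% of the gene-dense end, and peaks with a fold under 3 made up 37.1% and 41.8% of the same stretches. By density, the ratio of the cluster to the end was 1.48 for folds under 3, 2.16 for folds of 3 to 4 and 2.21 for folds of 4 to 6. It was 0.932 for folds from 6 up to the limit for strong peaks.

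**Figure D2:**
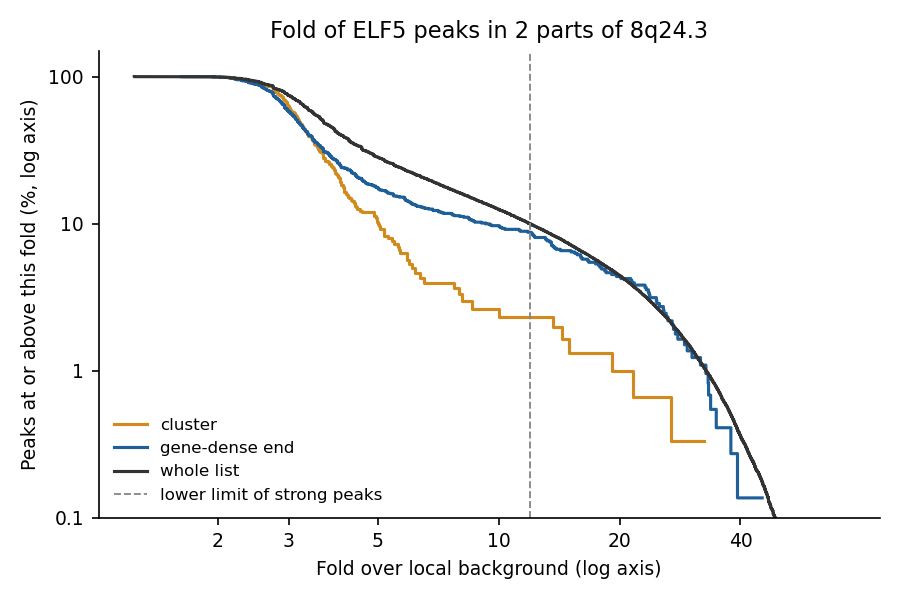
The share of peaks at or above each fold, in percent, with both axes logarithmic, for the cluster (302 peaks), the gene-dense end (732 peaks) and the whole list (115384 peaks). The dashed line marks the lower limit of strong peaks, at 11.99, where the cluster stands at 2.32%, the gene-dense end at 8.74% and the whole list at 10.0%.

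The strong peaks of the 2 stretches had close median folds and unlike median widths, though the cluster had only 7 of them. The 7 strong peaks of the cluster had a median fold of 19.2 and a median width of 638 bp, with widths from 416 to 1388 bp. The 64 strong peaks of the gene-dense end had a median fold of 19.9 and a median width of 1124 bp, with widths from 349 to 3629 bp, so the ranges overlapped. A width of 1000 bp or more was reached by 2 of the 7 in the cluster and by 41 of the 64 in the end, against 35.1% of strong peaks in the whole list. Weak peaks had similar widths, with a median of 211 bp in the cluster and 208.5 bp in the end. No peak of the cluster reached 2000 bp, which for 302 peaks allows a share of up to 0.993%, above the 0.448% of the whole list. In the gene-dense end 8 of 732 peaks did, out of 9 such broad peaks in the band.

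The local background was lower under the cluster. Its median was 3.25 scaled fragments in the cluster (interquartile range 3.0 to 4.0) and 3.92 in the gene-dense end (3.24 to 4.59), and the median pileup was 14 in the cluster and 16 in the end. Fold is a ratio to this background, and the part of background or pileup in the difference in strong peaks was not tested. The authors' q was under 0.05 for 83.4% of the cluster's peaks (78.8 to 87.5) and for 79.1% of those in the end (75.97 to 81.99), and these intervals overlap.

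Of the 7 strong peaks of the cluster, 6 lay past its midpoint. The first by position, chr8:143374886-143375629, had a fold of 19.2 (15.3 to 23.8) and a pileup of 81 fragments. The second, chr8:143484215-143485602, had the smallest p of the cluster, a pileup of 176 over a background of 5.0, and a fold of 26.9 (23.1 to 31.1). Next came a pair with summits 5.27 kb apart. Its first peak, chr8:143528550-143529166, had a fold of 21.6 (17.5 to 26.4). Its other peak, chr8:143533790-143534991, reached 32.4 (27.4 to 38.0), the highest fold of the cluster and rank 1222 in the whole list. The remaining 3 strong peaks had folds of 14.99 at chr8:143553287-143553924, 14.4 at chr8:143591154-143591768 and 13.7 at chr8:143690404-143690819. Their intervals reached below the limit for strong peaks, down to 11.8, 11.7 and 10.8.

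Below them, the highest fold among the cluster's other peaks was 10.02 (7.37 to 13.3), at chr8:143695075-143696060. The cluster's broadest peak, the 1422 bp of chr8:143273702-143275123, was not strong, with a fold of 8.57 (6.33 to 11.4). Its highest background was 9.0 scaled fragments, under a peak with a fold of 5.20. Within the cluster, 4 of 302 peaks had an interval that crossed the limit for strong peaks. In the gene-dense end 25 of 732 did, and in the whole list 8486 of 115384.

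**Figure D3:**
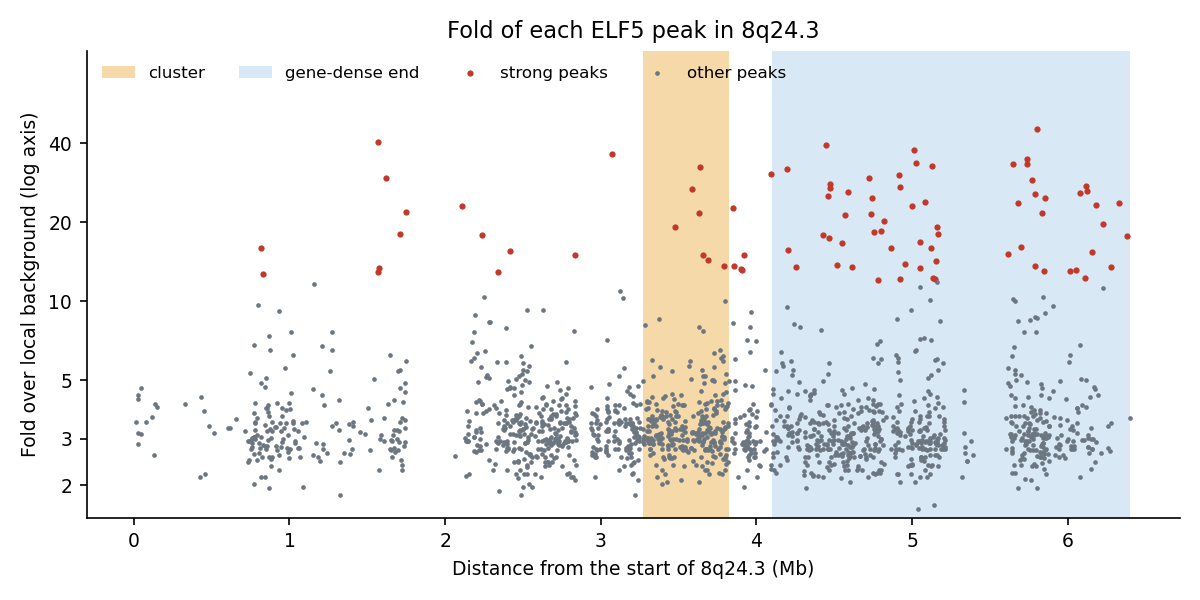
Fold over local background (log axis) of each of the 1756 peaks in 8q24.3 against the distance from the start of the band in Mb, with strong peaks marked and the cluster and the gene-dense end shaded. Most peaks form a layer near the median fold of 3.19 throughout, and of the 91 strong peaks above it 7 lie in the cluster and 64 in the gene-dense end.

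The gene-dense end held the peak with the band's highest fold, chr8:145702899-145704099, at 45.3 (39.4 to 51.8). It had a pileup of 210 fragments over a background of 3.24 and ranked 204 by fold in the whole list. The next 2 by fold within the gene-dense end were chr8:144349257-144349844, at 39.3 (34.1 to 45.1), and chr8:144910932-144912026, at 37.9 (32.6 to 43.7). The fourth and the fifth were chr8:145637965-145639500, at 34.8 (30.04 to 40.2), and chr8:144922636-144923847, at 33.7 (28.8 to 39.3). The interval of the first overlapped those of the next 3, so their order was not resolved. It also overlapped that of a peak before the cluster, chr8:141466996-141468768, at 40.6 (35.3 to 46.4). The highest pileup of the band, 232 fragments over a background of 6.0, belonged to chr8:144814814-144816602, whose fold was 30.3 (26.5 to 34.4). The broadest peak of the band, the 3629 bp of chr8:145024700-145028328, stood at 32.8 (28.2 to 37.9). A fold of 30 or more was reached by 14 of the band's 1756 peaks, against 1684 of 115384 in the whole list. Of these 14, 1 lay in the cluster and 10 among the 732 peaks of the gene-dense end, a share similar to that of the list.

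Within the gene-dense end, both the density of peaks and the share of strong ones varied. Its first 500 kb held 204 peaks, of which 13 were strong, and the next 500 kb held 221, of which 19 were strong. The 0.425 Mb analysed from 145.0 to 145.5 Mb held 78 peaks, of which 7 were strong. From 145.5 to 146.0 Mb there were 193 peaks, of which 16 were strong. These 4 shares ran from 6.37% to 8.97%. The last 300 kb held 36 peaks, of which 9 were strong, a share of 25% (12.1 to 42.2). That share was the highest of the 5 pieces, and its interval overlapped those of the 3 pieces before it and not that of the first, 3.44 to 10.7. No summit lay between 145288668 and 145502459, a distance of 213791 bp. Assembly gaps and mappability of that interval were not analysed.

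Strong peaks in the end were spaced closely enough that many weak ones lay beside them. The median distance between neighbouring strong summits was 41.1 kb in the cluster and 20.5 kb in the gene-dense end. Of the remaining peaks, 38 of 295 in the cluster had their summit within 5 kb of a strong one, a share of 12.9% (9.28 to 17.2). In the gene-dense end 234 of 668 did, a share of 35.0% (31.4 to 38.8). The median distance from a remaining peak to the nearest strong one was 25.8 kb in the cluster and 8.10 kb in the end. With fewer strong peaks per Mb, longer distances follow from the counts alone, so these values restate the density of strong peaks from the side of the weak ones.

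The low share of strong peaks did not begin with the cluster. Before it, from the start of the band, 14 of 638 peaks were strong, a share of 2.19% (1.20 to 3.65), which overlaps that of the cluster. From 142.4 to 143.3 Mb, a stretch picked after its values were seen and running into the cluster, 2 of 367 peaks were strong, or 0.545% (0.0661 to 1.95). Between the cluster and the gene-dense end the share was 7.14%, 6 of 84 peaks (2.67 to 14.9), whose interval overlaps both neighbours. The highest of these 6, chr8:143993012-143994002, had a fold of 30.7 (25.3 to 36.9). The strong peaks before the cluster included the one with the second highest fold of the band, chr8:141466996-141468768, at 40.6 (35.3 to 46.4) and a pileup of 212 fragments. Another, chr8:141520613-141522544, stood at 29.4 (24.8 to 34.6), and the only broad peak of that stretch, chr8:142010190-142012312, at 23.1 (19.3 to 27.5). Between these 2 lay the longest distance between neighbouring summits in the band, 312907 bp, from 141647640 to 141960547.

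A narrow strong peak stood before the cluster. It covered the 296 bp of chr8:142970711-142971006 and had a fold of 36.4 (30.2 to 43.5), at a pileup of 119 fragments over a background of 2.0. That background was the lowest value in the band, also found under the weak peak chr8:140050056-140050202. The 14 strong peaks before the cluster had a median width of 597 bp. Of 1684 peaks with a fold of 30 or more in the whole list, 3 were at most 300 bp wide, and this peak was 1 of them.

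The limits of the stretches fell between ordinary weak peaks. At the start of the band the first peak inside had a fold of 3.47 and the last outside 3.56, with summits 21780 bp apart. At the start of the cluster the first peak inside had a fold of 3.002 and the last outside 3.29, with summits 18513 bp apart. At its end the last peak inside had a fold of 4.98 and the first outside 2.93, with summits 20834 bp apart. At 144 Mb the first peak inside the gene-dense end had a fold of 2.57 and the last outside 3.34, and their summits were 4841 bp apart. This limit cut through a run of 23 peaks, chr8:143991325-144037207. The last peak of the arm had its summit at 146297345 and a fold of 3.59.

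When summits within 12500 bp of each other were joined, the band fell into 78 regions, and 92.8% of its peaks lay in the 26 regions of 10 peaks or more. The cluster formed 1 such region, chr8:143170254-143720805. The limits of the cluster are those of this region to the nearest kb. That it formed 1 region, with gaps above 12500 bp on both sides, was therefore fixed by the choice of the stretch. This region was the fourth richest in peaks of 34773 regions in the whole list, and its peaks lay at a median distance of 1218 bp. Its longest internal distance was 12478 bp, just under the joining limit, and with a limit of 5 kb it split into 21 pieces. In the gene-dense end neighbouring summits lay at a median distance of 1285 bp, so peaks within dense runs stood about as close there as in the cluster.

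Of the band's joined regions, 6 held at least 100 peaks. The cluster had 2.32% strong peaks, and the 2 others on its centromere side had 1.61% of 124 and 0.763% of 131 peaks. The 3 in the gene-dense end had 9.35% of 139, 9.71% of 103 and 10.0% of 100 peaks. These 3 held 569, 542 and 539 peaks per Mb, close to the 548.5 of the cluster's region. The intervals of the region of 124 peaks and of all 3 in the end overlap. Some smaller regions in the end had lower shares, such as chr8:144284276-144335175, with 1 strong peak of 26. The first of these 3 ends at the stretch that is not analysed here. Over all 33 regions of at least 100 peaks in the list the share ran from 0.763% to 11.6%, with a median of 4.57%, and the cluster had the 12th lowest. The region of 131 peaks, chr8:142476100-142743300, had the lowest share of all 33. The cluster's share was therefore within the range of other long runs of peaks, and no value here set it apart from them.

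**Figure D4:**
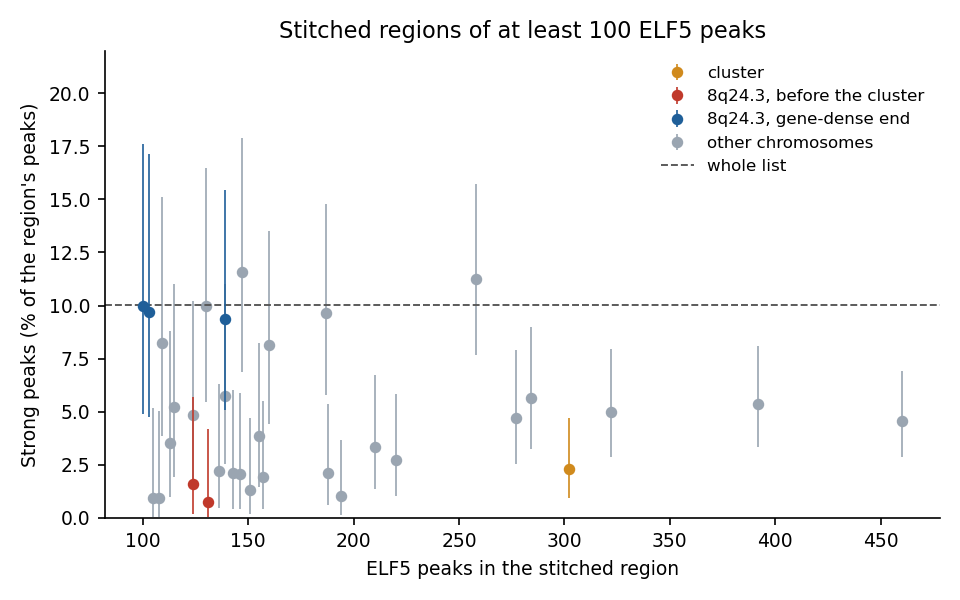
The share of strong peaks, in percent with exact Clopper-Pearson 95% intervals, against the number of peaks in each of the 33 joined regions (summits within 12500 bp) of at least 100 peaks. The 6 regions of 8q24.3 are coloured, with the 3 of the gene-dense end at 9.35% to 10.0% near the dashed line of the whole list, and the cluster and the 2 regions before it between 0.763% and 2.32%.

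The 2 other terminal bands compared, both rich in peaks, had similar values over their full length. The share of strong peaks was 5.18% in 8q24.3, 3.77% in 7p22.3 (2.72 to 5.08) and 4.83% in 9q34.3 (3.80 to 6.05). The median fold was 3.19 in 8q24.3, 3.13 in 7p22.3 and 3.15 in 9q34.3. Both of the other bands were denser, with 389 peaks per Mb in 7p22.3 and 391 in 9q34.3. The cluster, at 548 per Mb, was denser than either band as a whole, which compares a stretch chosen for its density with whole bands.

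On chromosome 8 the median background under peaks was lower over 8p as a whole than over 8q, but single bands of the 2 arms overlapped. The median background was 3.51 scaled fragments in 8q24.3, 3.51 over the rest of 8q and 2.43 over 8p. Among 8p bands with at least 20 peaks it was lowest at 1.89, in 8p23.3, and highest at 4.0, in 8p11.23. Among 8q bands it ran from 2.48 in 8q21.2 to 4.32 in 8q13.1. The short-arm bands 8p11.22 and 8p11.21, at 3.58 and 3.51, also stood at or above 8q24.3, while the neighbouring 8q24.23 stood at 2.84. At its median background of 3.51, 8q24.3 held 275 peaks per Mb, while the rest of 8q held 26.5 per Mb with 8.17% strong peaks (7.11 to 9.33). Within the band, the median of 3.92 in the gene-dense end was above that of the rest of 8q, and the 3.25 of the cluster was below it. The part of copy number in these backgrounds was not tested.

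**Figure D5:**
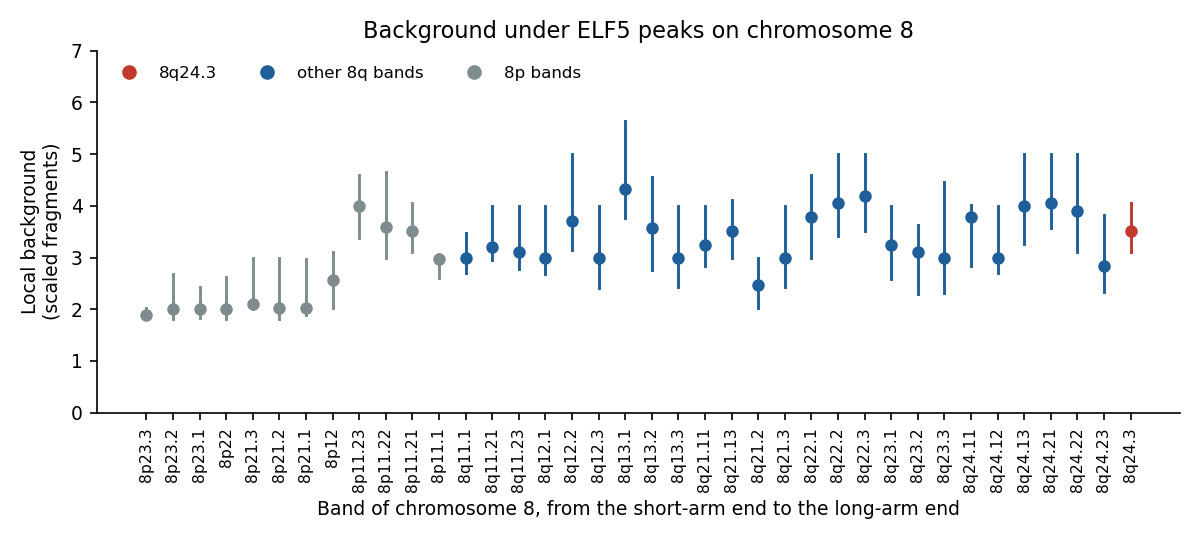
Median local background, in scaled fragments with the interquartile range over peaks, for each band of chromosome 8 with at least 20 peaks, ordered from the end of the short arm to the end of the long arm. The bands from 8p23.3 to 8p21.1 lie at about 2, and 8q24.3, at 3.51, lies among the other bands of the long arm, which run from 2.48 to 4.32.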

How the data were processed

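ELF5 binding was measured by ChIP-seq in 3 T47D samples, beside 1 input sample. The data used here are 1 peak list, on hg19 per the file headers. Its track line names IDR and 1-3, which may stand for replicates 1 to 3 or for 1 and 3, and whether the peaks passed an IDR threshold is not known. Not given in the sources used here were any pooling of replicates, the use of the input, the aligner, and the peak caller with its threshold. The score deposited by the authors is the whole part of 10 times the −log10 p in all 115384 rows. The deposited −log10 p, −log10 q and fold, a ratio that has no unit in the file, are the authors' own values for each peak and served only within this list. It gives no total reads per sample, so depth is known only as the pileup at a peak.

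The fold was taken as (0.910 × pileup + 1) / (background + 1) and the p as a Poisson tail, which gave the −log10 p of 115384 peaks within 0.001, with a second pileup possible for 95. The recovery was tested on simulated data. For intervals of a fold, the background was held constant and the pileup given its exact Poisson 95% interval, without allowing for the summit being a maximum. Shares carry exact Clopper-Pearson 95% intervals, and a count of 0 is given with the limit that 3 counts would set.

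Bands came from R 4.3.3 with circlize 0.4.16, where 24 chromosome ends equal the hg19 lengths of GenomeInfoDb 1.38.1. Densities use full lengths with assembly gaps kept in, less the 75 kb not analysed here. Gene order came from RefSeq (GRCh38.p14). Other tools were numpy 2.4.6, pandas 2.3.3, matplotlib 3.10.9 and scipy 1.17.1 under Python 3.11.15.

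The members, stretches and lists were chosen with earlier results of these data known. Named peaks are the 5 highest by fold, the 3 smallest by p and the broadest of each of the cluster, the gene-dense end and the rest of the band, and those beside each limit. The other strong peaks of the cluster, its highest background and the narrow peak's comparison were added after their values were seen. Alternatives were other limits on q, p and fold, membership by overlap, joining of close summits, other definitions of strong peaks, other joining distances and moved limits. Promoter and gene classes were not run, since no annotation of hg19 was used.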

Additional observations from a re-analysis of the deposited data

How the results depend on the processing

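Of 44 alternative values, 41 planned and 3 added after seeing the data, 25 stayed within their limits and 19 moved. Counts were taken as moved beyond a factor of 1.5, and shares, ratios and medians outside the 95% interval of the value reported above. Filters that remove peaks lower counts by construction. With a −log10 p of 5 or more, the cluster held 118 peaks, the gene-dense end 317 and the band 731. With the highest 50% of folds they held 90, 236 and 543. The cluster's density over that of the end, 1.67, ran from 1.503 to 1.76 over 5 alternatives, all of which kept the limits of both stretches. With the limits of the cluster moved 100 kb outwards it held 373 peaks, or 497 per Mb, against 548 per Mb within its own limits. The share of strong peaks in the cluster, 2.32%, ran from 1.32% to 3.97% over 5 alternatives, the last with the highest 20% of folds. In the gene-dense end it was 4.64% with the highest 5% of folds, 12.7% with the highest 20% and 11.05% among peaks with q under 0.05. In the band it was 2.56%, 8.66% and 6.44% under the same settings. The whole list holds 5% and 20% by definition under the first 2 settings, and its share with q under 0.05 was not computed. The cluster and the band lay below 5% and 20%, with intervals that did not reach them. The interval of the gene-dense end reached 5% (3.24 to 6.43) but not 20% (10.4 to 15.3), so its closeness to the list depended on the limit. The median fold was 3.32 in the cluster and 3.41 in the gene-dense end with q under 0.05, and 4.04 and 4.39 with a −log10 p of 5 or more, so that under both filters the end had the higher median, which turns the order of the medians reported above, 3.18 and 3.15. The band's median background was 3.67 with a −log10 p of 5 or more. Joining within 5 kb gave 269 regions in the band and within 25 kb 28. With q under 0.05 the cluster fell into 2 pieces. No paired analysis was possible because no column separates the replicates, and for the same reason none could be left out. Pileups of about 15 fragments limit the ranking of single peaks.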
